A study of Mus musculus with 5 samples.

Results

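The genes described here make cholesterol and handle fatty acids. Members were 37 gene symbols in 6 groups: 5 regulators of sterol synthesis, 6 enzymes of the mevalonate steps, 11 enzymes from squalene to cholesterol, 4 enzymes of fatty acid synthesis, 6 elongases and desaturases, and 5 genes of fatty acid uptake and lipid carriage. They were found in the RNA sequencing files through their Ensembl identifiers, mapped to symbols in the NCBIM37 annotation. Of the 37, 36 had a matching identifier (*Msmo1* through its older symbol *Sc4mol*), and *Hmgcs1* was not analysed here. All 36 had a mean of at least 1 FPKM (sequenced fragments per kilobase of transcript, normalized to library size), as did 16286 of the 34615 symbols in the files.

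Brain microvascular fragments had been isolated from 3 wild-type (WT) and 2 heterozygous *Ins2*-AKITA mice, all males on the C57BL6 background and between 26 and 38 weeks old. The AKITA mutation, in 1 copy of the Ins2 gene for insulin, damages the insulin-producing beta cells of the pancreas and leads to lasting hyperglycemia. The WT mice were littermates, and each mouse gave 1 library. The fragments had been pulled down with beads against PECAM1, so that pericytes and astrocyte end-feet came along with the endothelial cells.

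Cholesterol is built from acetyl-CoA through mevalonate, the isoprenoids, squalene and a long series of sterol intermediates. When sterol in the endoplasmic reticulum is low, SCAP escorts the SREBP transcription factors to the Golgi apparatus, where they are cut and released to the nucleus to switch on these genes, whereas INSIG proteins hold the complex back when sterol is plentiful. The blood-brain barrier keeps lipoprotein cholesterol out, so the brain makes its own, and astrocytes load it onto APOE for other cells, while oligodendrocytes use large amounts for myelin.

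In these libraries no member passed the test for a difference between genotypes. With limma on log2(FPKM + 1) and Benjamini-Hochberg adjustment over all 16286 genes, 0 of 36 members had an adjusted p under 0.05, and the smallest adjusted p of a member was 0.896. Of all genes tested, 0.0246% passed, 0 higher and 4 lower in *Ins2*-AKITA mice. At an unadjusted limma p under 0.05 there were 0 members in either direction, against 1.53% of all genes higher and 2.93% lower. In 25 members the log2 fold change was above 0 and in 11 below 0, and the first count ran from 25 to 29 under the other scalings tried. By mean FPKM, 24 members (66.7%) were higher in *Ins2*-AKITA mice, against 46.0% of all genes. The median log2 fold change was 0.21 over the members and -0.03 over all genes tested. Relative to each gene's WT mean, the members' median was -0.28, -0.02 and 0.31 in WT replicates 1 to 3. It was 0.14 and 0.28 in the *Ins2*-AKITA mice, inside the WT range (pooled SD between mice 0.25). The low number of *Ins2*-AKITA mice limits every one of these comparisons: with 3 mice against 2, an exact permutation test of a single value cannot give a p under 0.1.

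The depth was modest. An estimate from the steps between low FPKM values gave between 1130129 and 1322482 fragments for 4 of the mice and 2857668 for WT replicate 3. For a transcript of 2000 nucleotides, 3 fragments corresponded to between 0.593 and 1.497 FPKM. Small and ribosomal RNA genes, whose short length raises their FPKM, took 96.7%, 96.6% and 58.0% of all FPKM in the WT mice (replicates 1 to 3). The shares were 89.6% and 40.6% in the *Ins2*-AKITA mice. WT replicate 3 and *Ins2*-AKITA replicate 2 stood apart in this respect. The labels name separate mice and say no more of how the libraries were handled, so the p-values measure the spread between these libraries.

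The fragments were not pure endothelium. Endothelial markers were well above 0, with a sum over 8 genes of 445, 629.7 and 354 FPKM in WT and 386 and 309 FPKM in *Ins2*-AKITA mice. The 8 astrocyte markers summed to 1659.5, 2099 and 2463 FPKM in WT and to 2828 and 3249 FPKM in *Ins2*-AKITA mice, and all 8 had the higher mean in *Ins2*-AKITA mice (exact permutation p of the sum 0.2, two-sided). Endothelial markers and red cell genes lay on the other side, with the lower mean in *Ins2*-AKITA mice in 8 of 8 (exact permutation p of the sum 0.4) and 4 of 4 (0.2). The 8 oligodendrocyte markers summed to between 1943 and 2640.4 FPKM. In bulk RNA of this kind, fewer cells of a type and less RNA per cell cannot be told apart.

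The regulators were all well detected, and none had groups that lay apart. *Srebf1*, which encodes the SREBP that mainly drives fatty acid genes, was at 86.0, 89.9 and 72.0 FPKM in WT and 103 and 73.1 FPKM in *Ins2*-AKITA mice, the eighth highest mean among the members. Its highest value was in *Ins2*-AKITA replicate 1, and its other *Ins2*-AKITA value lay near the lowest WT value. *Srebf2*, which encodes the SREBP that mainly drives sterol genes, was at 35.4, 39.4 and 51.5 FPKM in WT and 43.6 and 52.9 FPKM in *Ins2*-AKITA mice. The groups overlapped for both genes, with log2 fold changes of 0.07 ± 0.22 (SE) for *Srebf1* and 0.20 ± 0.23 for *Srebf2*.

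*Scap*, the escort of the SREBPs, was at 32.6, 22.04 and 18.3 FPKM in WT and 17.1 and 24.6 FPKM in *Ins2*-AKITA mice. The gene of the retention factor *Insig1* was at 17.7, 17.5 and 24.1 FPKM in WT and 20.9 and 24.1 FPKM in *Ins2*-AKITA mice, and *Insig2* at 21.7, 13.3 and 23.5 FPKM in WT and 16.5 and 16.1 FPKM in *Ins2*-AKITA mice. Neither genotype stood apart for any of these 3 genes. The median log2 fold change of the 5 regulators was 0.07, with *Insig2* lowest at -0.21 ± 0.29 and *Srebf2* highest, and 0 of 5 had groups that did not overlap. The geometric mean of the regulators stayed between 28.5 and 33.0 FPKM in all 5 mice. Some regulator loci hold other annotated genes (*Rai1* at *Srebf1*, *5830462I19Rik* at *Scap*, both on the opposite strand), and whether strand was used in counting is not given in the sources used here.

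**Figure D1:**
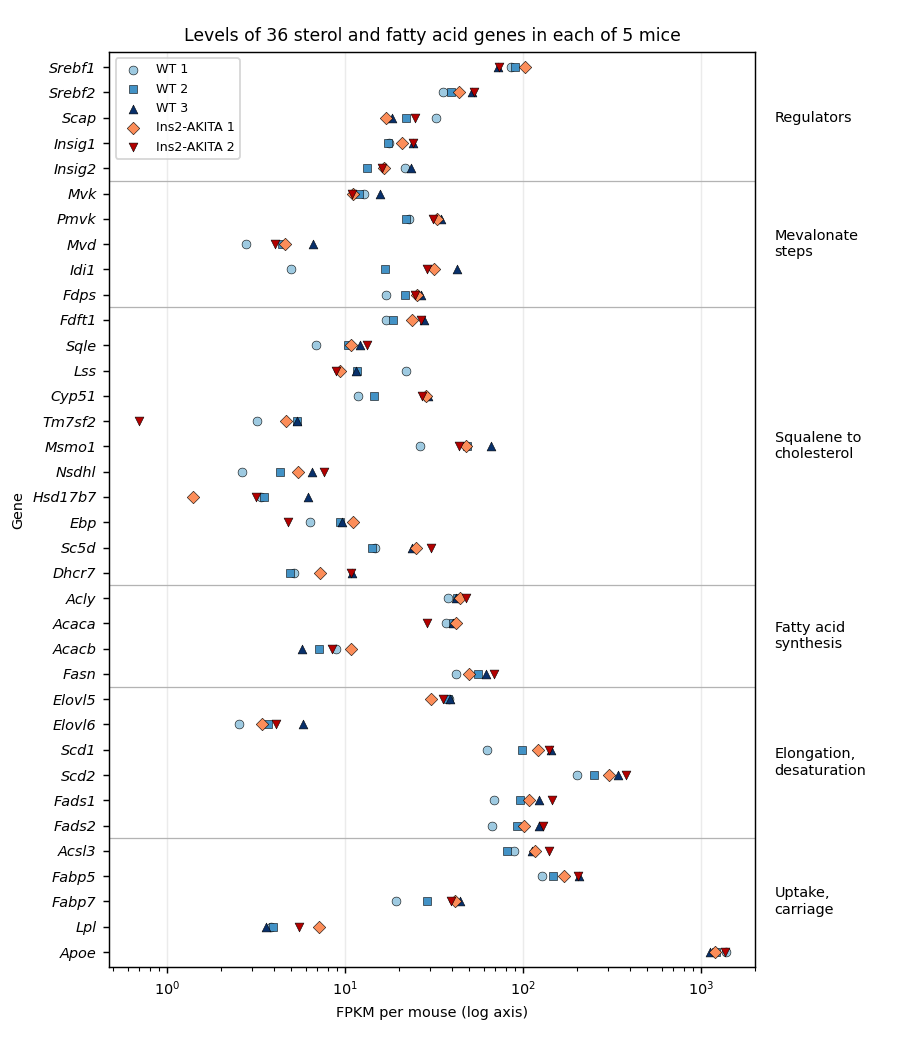
FPKM of each of the 36 members in each mouse, on a log axis, with genes in the order of the pathway. Points are single mice (blue WT replicates 1 to 3, orange and red *Ins2*-AKITA replicates 1 and 2). *Apoe* is highest, at 1122 to 1381 FPKM. *Idi1* has the widest spread among the WT mice, from 4.999 to 42.5 FPKM.

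The mevalonate steps were led by their spread within the WT group. *Idi1*, the isomerase that makes dimethylallyl diphosphate, was at 4.999, 16.8 and 42.5 FPKM in WT and at 31.8 and 29.0 FPKM in *Ins2*-AKITA mice. Both *Ins2*-AKITA values lay inside the range of the WT values, which spanned 8.50-fold from replicate 1 to replicate 3. Its log2 fold change of 0.91 ± 0.76 was the highest of all members and its unadjusted limma p was 0.274. Without WT replicate 3 the value was 1.60 (adjusted limma p 0.576), and without WT replicate 1 it was 0.17.

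*Mvk*, the kinase that phosphorylates mevalonate, lay on the other side of 0. It was at 12.7, 11.9 and 15.7 FPKM in WT and 11.1 and 10.96 FPKM in *Ins2*-AKITA mice. Both *Ins2*-AKITA values lay below all WT values, though by less than the spread among the WT mice (log2 fold change -0.26 ± 0.23, limma p 0.308, and -0.15 without WT replicate 3). The next kinase, *Pmvk*, had means of 26.4 FPKM in WT and 32.2 FPKM in *Ins2*-AKITA mice, and the farnesyl diphosphate synthase gene *Fdps* had means of 21.9 and 25.1 FPKM. Both had overlapping groups. *Mvd*, the decarboxylase of the branch, was low at 2.79 to 6.63 FPKM. Its 1 annotated transcript puts those values at about 5, 9 and 29 fragments in WT and 8 and 8 fragments in *Ins2*-AKITA mice, and the groups overlapped (log2 fold change -0.02 ± 0.39). Such numbers carry counting error alone, and the spread between mice comes on top.

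Between squalene and cholesterol the fold changes of the enzymes lay on both sides of 0. *Sc5d*, the lathosterol oxidase of a late step, was at 14.7, 14.1 and 23.8 FPKM in WT and 25.0 and 30.5 FPKM in *Ins2*-AKITA mice. Both *Ins2*-AKITA values lay above all WT values, with WT replicate 3 close behind. Its log2 fold change of 0.67 ± 0.29 came with the smallest p of any member (limma p 0.0571, adjusted p 0.896). *Cyp51*, the lanosterol 14-alpha-demethylase, was at 11.9, 14.6 and 29.4 FPKM in WT and 28.7 and 26.9 FPKM in *Ins2*-AKITA mice. Here WT replicate 3 was the highest of all 5 mice, and the groups overlapped only through that mouse (log2 fold change 0.66 ± 0.38). When single mice were dropped, the log2 fold change of *Sc5d* ranged from 0.53 without *Ins2*-AKITA replicate 2 to 0.89 without WT replicate 3, and that of *Cyp51* from 0.41 without WT replicate 1 to 1.024 without WT replicate 3. The adjusted limma p was 0.556 for both genes without WT replicate 3.

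The enzymes on the other side of 0 included *Lss*, the lanosterol synthase that closes the sterol rings. It was at 21.9, 11.6 and 11.5 FPKM in WT and 9.34 and 8.94 FPKM in *Ins2*-AKITA mice. The *Ins2*-AKITA mice lay below all WT mice, and WT replicate 1 was far above the rest (log2 fold change -0.60 ± 0.33, limma p 0.121). Without WT replicate 1 the log2 fold change was -0.31. The noncoding gene *4930483K19Rik* lies on the opposite strand within *Lss*. *Hsd17b7*, a sterol ketoreductase, was at 3.38, 3.53 and 6.21 FPKM in WT and 1.40 and 3.14 FPKM in *Ins2*-AKITA mice, again with the groups apart (log2 fold change -0.73 ± 0.44, limma p 0.143). *Ins2*-AKITA replicate 2 lay just under the lowest WT mouse, and without *Ins2*-AKITA replicate 1 the log2 fold change was -0.34. *Tm7sf2*, a sterol 14-reductase, had the lowest fold change of all members at -0.84 ± 0.58. Its values were 3.22, 5.39 and 5.36 FPKM in WT and 4.68 and 0.692 FPKM in *Ins2*-AKITA mice, so 1 library set it. Without *Ins2*-AKITA replicate 2 the fold change was 0.03, and *Tm7sf2* also shares bases with *1110014N23Rik* on the same strand.

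The other 6 enzymes of this stretch had overlapping groups. Squalene synthase *Fdft1* (means of 21.1 FPKM in WT and 25.4 FPKM in *Ins2*-AKITA mice), squalene epoxidase *Sqle* (9.84 and 12.1), the C4-demethylation enzyme *Nsdhl* (4.48 and 6.55) and the last reductase *Dhcr7* (7.01 and 9.06) had the higher mean in *Ins2*-AKITA mice. *Msmo1*, the C4-methyl oxidase, had the highest mean of the stretch, and its mean FPKM was 46.9 ± 19.6 (SD, n = 3) in WT and 45.8 ± 2.62 (SD, n = 2) in *Ins2*-AKITA mice. The isomerase *Ebp* ranged from 4.77 to 11.03 FPKM, and both of those extremes were *Ins2*-AKITA mice. Over the 11 genes the median log2 fold change was 0.28, with 1 gene above and 2 below in both *Ins2*-AKITA mice.

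**Figure D2:**
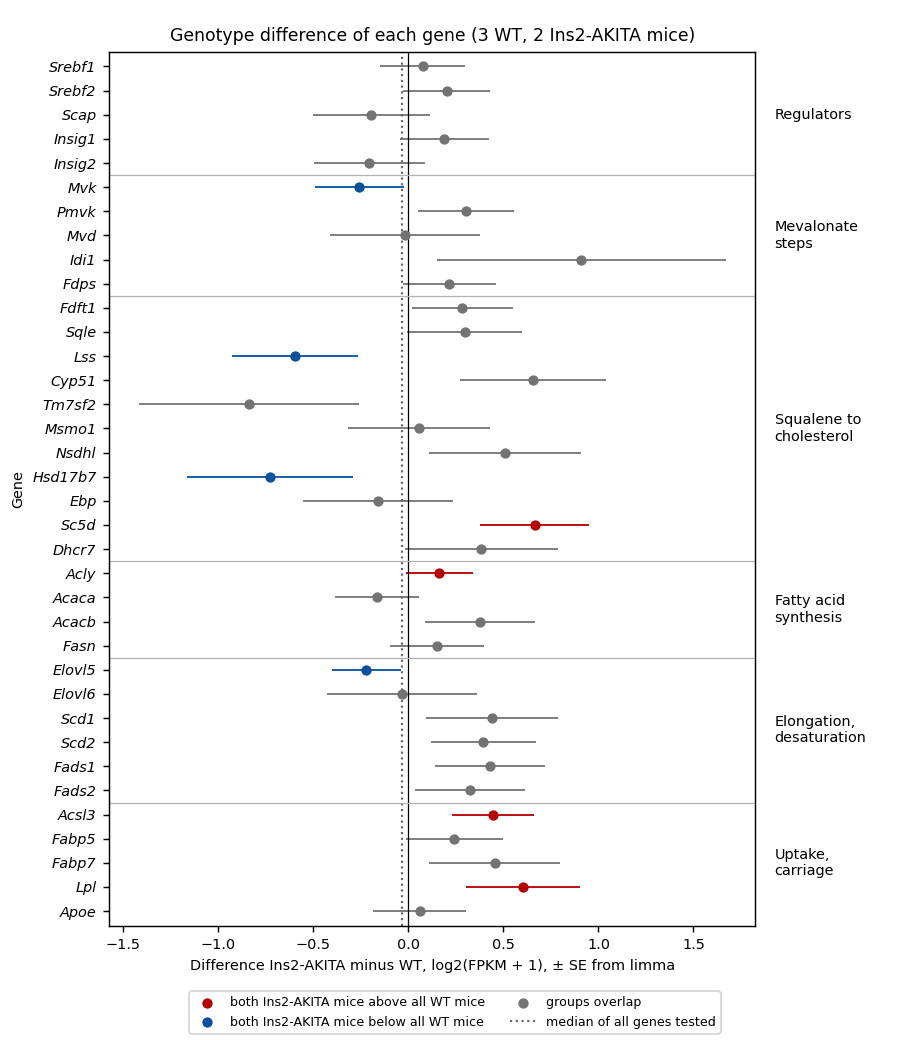
Difference between *Ins2*-AKITA and WT mice for each member on the log2(FPKM + 1) scale, with the SE from limma as bars. The median of all genes tested is a dotted line at -0.03. Red marks the 4 members whose *Ins2*-AKITA values both lie above all WT values, and blue the 4 whose values both lie below. Values run from -0.84 for *Tm7sf2* to 0.91 for *Idi1*.

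The promoters of the sterol enzymes are shown to let the reader see what these genes share in sequence. The RefSeq promoter table (GRCm38.p6, from 250 bases before to 50 bases after a gene's start) held 28 of the 36 analysed members in 38 windows. Shown are the 3 sterol enzymes with a promoter there and the widest spread among WT mice (*Idi1*, *Msmo1* and *Cyp51*), with *Sc5d* and *Lss*, whose groups lay apart in opposite directions. The windows lie at chr13:8885356-8885655 on the plus strand for *Idi1*, chr8:64733529-64733828 on the minus strand for *Msmo1*, chr5:4104648-4104947 on the minus strand for *Cyp51*, chr9:42264251-42264550 on the minus strand for *Sc5d*, and chr10:76531355-76531654 on the plus strand for *Lss*. Capitals mark CCAAT and GGGCGG and their reverse complements ATTGG and CCGCCC, and each sequence runs 5′ to 3′ along its gene's strand.
Idi1: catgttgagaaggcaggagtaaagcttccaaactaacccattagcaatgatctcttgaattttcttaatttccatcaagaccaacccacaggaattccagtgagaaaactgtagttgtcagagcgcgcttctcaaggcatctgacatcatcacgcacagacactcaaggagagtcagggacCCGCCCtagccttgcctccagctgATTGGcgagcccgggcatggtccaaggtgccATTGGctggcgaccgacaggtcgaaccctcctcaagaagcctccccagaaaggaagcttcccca
Msmo1: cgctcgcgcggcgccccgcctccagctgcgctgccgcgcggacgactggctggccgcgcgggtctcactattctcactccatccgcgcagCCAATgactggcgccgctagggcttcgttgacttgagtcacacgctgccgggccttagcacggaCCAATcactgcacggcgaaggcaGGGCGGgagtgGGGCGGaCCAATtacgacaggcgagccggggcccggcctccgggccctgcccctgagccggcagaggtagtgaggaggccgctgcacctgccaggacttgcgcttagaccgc
Cyp51: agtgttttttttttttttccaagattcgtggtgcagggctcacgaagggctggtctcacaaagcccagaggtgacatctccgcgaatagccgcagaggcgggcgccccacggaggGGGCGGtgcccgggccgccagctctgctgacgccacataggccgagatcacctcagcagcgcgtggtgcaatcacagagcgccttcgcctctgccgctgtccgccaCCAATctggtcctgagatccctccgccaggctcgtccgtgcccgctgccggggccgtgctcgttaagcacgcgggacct
Sc5d: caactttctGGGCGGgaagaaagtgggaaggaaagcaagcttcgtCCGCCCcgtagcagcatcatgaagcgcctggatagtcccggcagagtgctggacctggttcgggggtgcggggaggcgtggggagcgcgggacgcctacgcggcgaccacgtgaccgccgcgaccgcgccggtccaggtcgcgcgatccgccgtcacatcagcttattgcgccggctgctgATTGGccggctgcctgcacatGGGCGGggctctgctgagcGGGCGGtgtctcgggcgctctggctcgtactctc
Lss: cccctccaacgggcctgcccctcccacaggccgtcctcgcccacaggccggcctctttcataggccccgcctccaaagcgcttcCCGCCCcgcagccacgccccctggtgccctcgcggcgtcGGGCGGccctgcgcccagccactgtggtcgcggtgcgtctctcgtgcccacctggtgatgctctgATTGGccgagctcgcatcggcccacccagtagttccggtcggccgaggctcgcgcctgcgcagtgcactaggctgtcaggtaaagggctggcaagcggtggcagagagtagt

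CCAAT, the letters bound by NF-Y, a factor known to act beside SREBP, stood on either strand in 24 of the 38 member windows (63.2%), against 37.41% of all 32851 windows and 37.2% of the windows of genes tested. By gene, 17 of the 18 sterol members and 6 of the 9 fatty acid members with a window held it, the fatty acid members being counted without *Apoe*. GGGCGG, the Sp1 box, stood in 63.2% of the member windows and in 60.3% of those of genes tested, and by gene in 17 of the 18 sterol members and 3 of the 9 fatty acid members with a window. CACGTG, the E-box that SREBP1 can also bind, stood in 7 windows (18.4%, against 9.5% for genes tested), among them that of *Sc5d*, where it is not in capitals. TCACNCCAC, the only spelling of the sterol regulatory element that was searched, stood in 0 of the 38 windows and in 1.1% of those of genes tested. Elements of another spelling would have been missed, so this does not show that the windows lack one. CACGTG reads the same on both strands, and none of the 4 motifs contains another. A gene counted if any of its windows matched, and no share by gene is given over all genes. The counts by gene therefore cannot be set against the shares of windows. A match describes letters in a window and not a bound site.

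Of the 4 genes listed under fatty acid synthesis, 3 had a log2 fold change above 0. *Acly*, which splits citrate into acetyl-CoA for both pathways, was at 38.1, 42.8 and 42.1 FPKM in WT and 44.3 and 47.7 FPKM in *Ins2*-AKITA mice. Both *Ins2*-AKITA values lay above all WT values, yet by little (log2 fold change 0.16 ± 0.18, limma p 0.388). *Acacb*, the acetyl-CoA carboxylase of the mitochondrial surface, was at 8.94, 7.14 and 5.70 FPKM in WT and 10.8 and 8.49 FPKM in *Ins2*-AKITA mice. Its groups overlapped, with WT replicate 1 between the *Ins2*-AKITA mice (log2 fold change 0.37 ± 0.29, and 0.22 without *Ins2*-AKITA replicate 1). *Acaca*, the carboxylase of the cytosol, was nearly level in 4 mice at 36.8, 40.2 and 40.4 FPKM in WT and 41.9 FPKM in *Ins2*-AKITA replicate 1, and lower at 28.9 FPKM in *Ins2*-AKITA replicate 2. Its fold change of -0.16 ± 0.22 turned to 0.09 without that mouse. The synthase *Fasn* had means of 53.3 ± 10.2 (SD, n = 3) FPKM in WT and 59.3 ± 13.2 (SD, n = 2) FPKM in *Ins2*-AKITA mice.

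The desaturases were among the highest members, and WT replicate 1 was the lowest mouse in all 4. *Scd2*, the stearoyl-CoA desaturase of brain, was at 201, 249.99 and 342 FPKM in WT and 303 and 379.7 FPKM in *Ins2*-AKITA mice. Its sister gene *Scd1* was at 62.4, 98.1 and 143 FPKM in WT and 121 and 140.3 FPKM in *Ins2*-AKITA mice. In both genes WT replicates 1 and 2 were lowest. The highest mouse was *Ins2*-AKITA replicate 2 for *Scd2* and WT replicate 3 for *Scd1*. Of the polyunsaturated fatty acid desaturases, *Fads1* was at 68.7, 95.9 and 123 FPKM in WT and 108 and 146 FPKM in *Ins2*-AKITA mice, and *Fads2* at 66.8, 92.7 and 123 FPKM in WT and 102 and 129 FPKM in *Ins2*-AKITA mice. The 4 log2 fold changes lay between 0.32 and 0.44, each with an SE of 0.28 to 0.35, and the groups overlapped in all 4.

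Each of these 4 genes has 1 annotated transcript, and the lowest number of fragments behind a value was about 100, for *Fads2* in WT replicate 1. *Scd1* and *Scd2* share a coding sequence identity of 89.6%, with identical stretches of up to 147 bases, so that reads from one could have been counted in the other, and their values are uncertain to that extent. For *Fads1* and *Fads2* the identity was 66.3% and the longest identical stretch 17 bases. The genes of each pair are neighbours on chromosome 19, with 87586 bases between *Scd2* and *Scd1* and 81384 bases between *Fads2* and *Fads1*. The log2 fold changes depended on single mice in either direction. Without WT replicate 3 those of *Scd1*, *Scd2*, *Fads1* and *Fads2* were 0.73, 0.60, 0.63 and 0.54, and without WT replicate 1 they were 0.14, 0.21, 0.21 and 0.10. Without *Ins2*-AKITA replicate 2 they were 0.33, 0.23, 0.21 and 0.15, and no adjusted p was under 0.05 in any of these fits.

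Of the 2 elongases, *Elovl6* had the same order of WT mice as the desaturases and *Elovl5* did not. *Elovl5*, which lengthens polyunsaturated fatty acids, was at 38.4, 38.0 and 38.9 FPKM in WT and 30.4 and 35.5 FPKM in *Ins2*-AKITA mice. The WT mice were almost equal and both *Ins2*-AKITA mice lay below them (log2 fold change -0.22 ± 0.18, limma p 0.264, and -0.11 without *Ins2*-AKITA replicate 1). *Elovl6*, which lengthens palmitate, was at 2.54 to 5.82 FPKM, or about 17 to 95 fragments, with overlapping groups.

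Genes of uptake and carriage had the highest median of the 6 groups, 0.45, and 5 of 5 had a log2 fold change above 0. That of *Apoe* crossed 0 without WT replicate 3 (-0.0095) and without *Ins2*-AKITA replicate 2 (-0.0348). *Acsl3*, which activates long-chain fatty acids at lipid droplets, was at 89.2, 81.01 and 113 FPKM in WT and 116 and 140.3 FPKM in *Ins2*-AKITA mice. Both *Ins2*-AKITA values lay above all WT values, with WT replicate 3 just below (log2 fold change 0.45 ± 0.22, limma p 0.0812). *Utp14b* lies within *Acsl3* on the same strand. *Lpl*, the lipase that frees fatty acids from lipoproteins, was low at 3.86, 3.96 and 3.58 FPKM in WT and 7.16 and 5.49 FPKM in *Ins2*-AKITA mice. The WT mice were nearly equal and both *Ins2*-AKITA mice lay above them (log2 fold change 0.60 ± 0.30, limma p 0.0882), but no adjusted p under 0.05 went with it. *Gpihbp1*, the endothelial anchor of this lipase, was above 0 in 1 mouse, at 1.503 FPKM in WT replicate 1.

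*Fabp5*, a fatty acid binding protein of endothelium and glia, was at 127, 147 and 206 FPKM in WT and 169.8 and 203 FPKM in *Ins2*-AKITA mice. *Fabp7*, the binding protein of astrocytes and neural precursors, had means of 30.8 ± 12.7 (SD, n = 3) FPKM in WT and 40.3 ± 1.56 (SD, n = 2) FPKM in *Ins2*-AKITA mice. In both genes WT replicate 3 was the highest of the 5 mice. *Apoe*, the main lipid carrier of brain, had the highest level of all members, with 1381, 1211 and 1122 FPKM in WT and 1204 and 1370.4 FPKM in *Ins2*-AKITA mice. Its groups overlapped, with WT replicate 3 lowest and a log2 fold change of 0.06 ± 0.24.

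Counted over the 36 members, both *Ins2*-AKITA mice lay above all WT mice in 4 (*Sc5d*, *Acly*, *Acsl3* and *Lpl*), where 9.24% of all genes did, and below all WT mice in 4 (*Mvk*, *Lss*, *Hsd17b7* and *Elovl5*), where 10.3% did. Both shares, of 11.1%, were near the background. In NCBIM37 the genes above lie at chr9:42062260-42072383 (*Sc5d*, minus strand), chr11:100337667-100389314 (*Acly*, minus strand), chr1:78654400-78703562 (*Acsl3*, plus strand) and chr8:71404390-71431347 (*Lpl*, plus strand). Those below lie at chr5:114894278-114910600 (*Mvk*, plus strand), chr10:75994333-76019883 (*Lss*, plus strand), chr1:171879666-171899372 (*Hsd17b7*, minus strand) and chr9:77765171-77832326 (*Elovl5*, plus strand). The count of members above moved with single libraries: it was 20 (55.6%) without WT replicate 3, 12 (33.3%) without *Ins2*-AKITA replicate 1 and 8 (22.2%) without *Ins2*-AKITA replicate 2. The share of all genes moved too, to 18.0%, 26.1% and 22.4% in the same fits. The count below was 7 (19.4%) without *Ins2*-AKITA replicate 1, under the 27.9% of all genes.

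**Figure D3:**
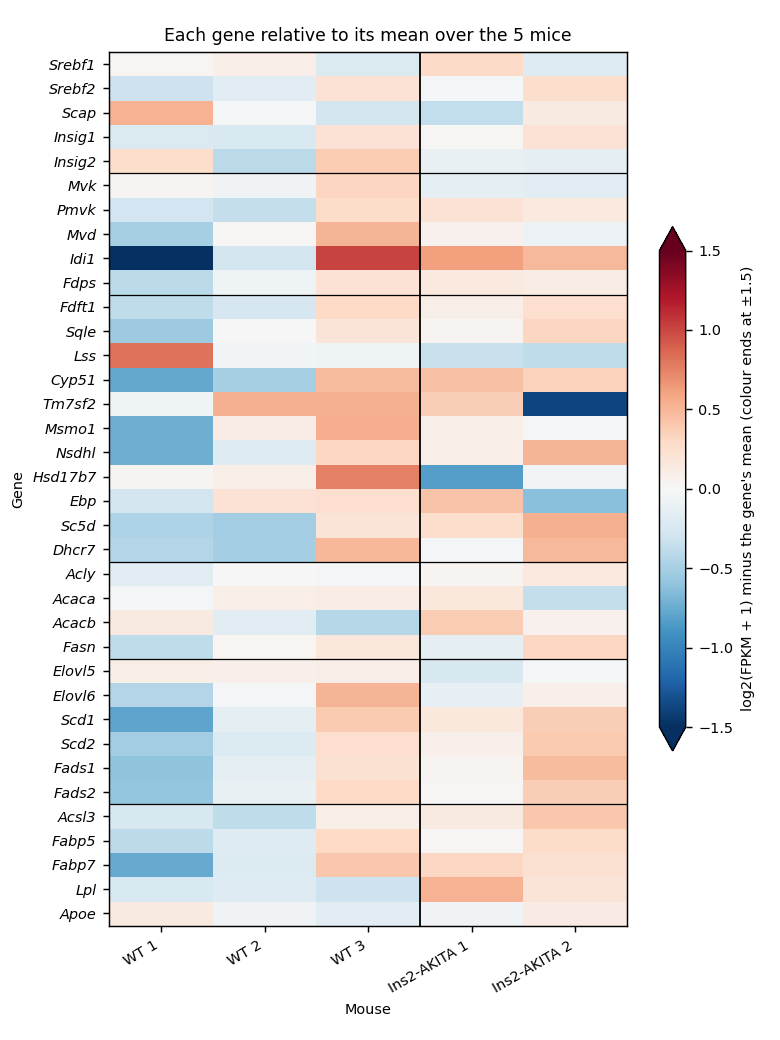
Each member's log2(FPKM + 1) in each mouse minus its mean over the 5 mice, in the order of the pathway, with red above and blue below the mean. WT replicate 1 is the lowest mouse in 18 of 36 members and WT replicate 3 the highest in 16.

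The more regular feature was the order of the mice, and it ran through the WT group. WT replicate 1 was the lowest of the 5 mice in 18 of 36 members, against 21.1% of all genes tested. WT replicate 3 was the highest of the 5 in 16 members (44.4%), against 11.1% of all genes. Among the WT mice alone, replicate 3 was highest in 28 members (77.8%, against 28.2%), and replicates 1, 2 and 3 held the lowest, middle and highest value in 20 (55.6%, against 15.9%). Without WT replicate 3, WT replicate 1 was the lowest of the other 4 mice in 19 members (52.8%, against 23.6% of all genes). Without *Ins2*-AKITA replicate 2 it was lowest in 21 (58.3%, against 25.0%), and WT replicate 3 was highest in 24 (66.7%, against 20.0%). These shares are descriptions, since members of 1 pathway are not independent of each other.

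The order within the WT group was alike in sterol and fatty acid members. Of all 5 mice, WT replicate 3 was highest in 11 of the sterol members but in 5 of the fatty acid members, where *Ins2*-AKITA replicate 2 was highest in 6. WT replicate 3 was the highest WT mouse in 17 of 21 sterol members and in 11 of 14 fatty acid members. The geometric mean of the 16 sterol enzymes was 8.82, 11.1 and 16.2 FPKM in WT and 12.9 and 12.3 FPKM in *Ins2*-AKITA mice, so that both *Ins2*-AKITA mice lay inside the WT range and WT replicate 3 was highest. For *Scd1*, *Scd2*, *Fads1* and *Fads2* it was 87.1, 122 and 165 FPKM in WT and 142 and 178 FPKM in *Ins2*-AKITA mice, with *Ins2*-AKITA replicate 2 highest. Genes for fatty acid synthesis spread less than either of these sets, from 27.2 to 31.8 FPKM, much as the regulators did (28.5 to 33.0 FPKM). In fatty acid synthesis both *Ins2*-AKITA mice (31.8 and 30.3 FPKM) lay above the highest WT mouse (29.3 FPKM). The same was so for uptake and carriage (95.4 and 99.6 FPKM, against 87.7 FPKM). In the other groups both *Ins2*-AKITA mice lay inside the WT range.

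Because the share of small and ribosomal RNA differed between mice, genotypes were also compared between the libraries nearest in that share. These were not matched: the shares were 40.6% against 58.0%, and 89.6% against 96.7% and 96.6%. Nuclear protein-coding genes took 25.5% of all FPKM against 10.3%, and 9.09% against 2.88% and 2.97%, in the same pairs. *Ins2*-AKITA replicate 2 minus WT replicate 3 gave a median log2 difference of -0.03 over the members, with 16 of 36 above 0. *Ins2*-AKITA replicate 1 minus the mean of WT replicates 1 and 2 gave 0.34, with 29 of 36 above 0. The medians of all genes tested were 0.01 and -0.04. The members' median was above 0 in the second of these comparisons and not in the first, and neither has a replicate in both genotypes or a test. The part of the small and ribosomal RNA share in the order of the mice was not tested.

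**Figure D4:**
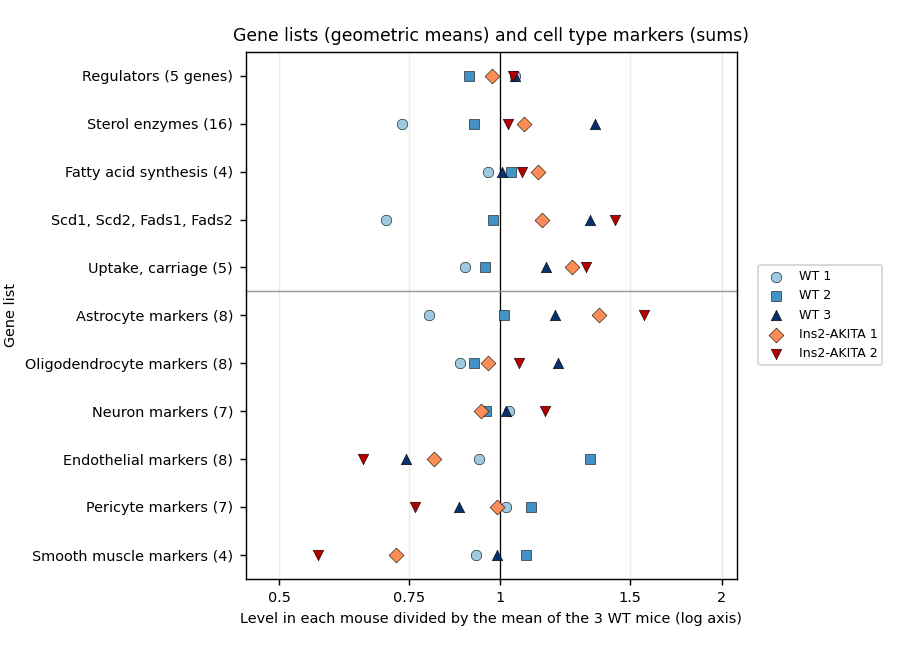
Level of gene lists in each mouse divided by the mean of the 3 WT mice, on a log axis. Member lists above the line are geometric means and cell type marker lists below it are sums of FPKM. Sterol enzymes range over 8.82 to 16.2 FPKM within WT, and the sum of the astrocyte markers is highest in both *Ins2*-AKITA mice.

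Markers of other cells in the fragments varied alongside some of these genes. The astrocyte sum was lowest in WT replicate 1 and highest in both *Ins2*-AKITA mice, and in 3 of its 8 genes both *Ins2*-AKITA mice exceeded all WT mice. *Slc1a2* weighed most in that sum, at 1013, 1449 and 1507 FPKM in WT and 1897 and 2110 FPKM in *Ins2*-AKITA mice. Its order was not that of every marker: WT replicate 2 was lowest in *Gfap*, *Aldh1l1*, *Gja1* and *Gjb6*, and WT replicate 3 highest in *Aqp4* and *Gjb6*. Oligodendrocyte markers were highest in WT replicate 3, as the sterol enzymes were, at 2640.4 FPKM, with a ratio of genotype means of 1.011. The 4 smooth muscle markers summed to 212, 249 and 227 FPKM in WT and 166 and 129 FPKM in *Ins2*-AKITA mice, and 4 of 4 lay below all WT values (exact permutation p of the sum 0.1, the smallest possible). Neuron markers summed to between 628 and 769 FPKM, and the 7 pericyte markers to between 171 and 246 FPKM. Microglia markers (73.1 to 123 FPKM), red cell genes (25.1 to 64.5) and fibroblast markers (28.7 to 36.2) were lower throughout. No marker list had a gene at 0 in all mice, and the part of these cells in the levels of the members was not tested.

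Other genes of sterol and fatty acid metabolism were looked at from a separate list of 47, of which 44 reached a mean of 1 FPKM. None had an adjusted limma p under 0.05, and 1 had an unadjusted p under 0.05. Both *Ins2*-AKITA mice lay above all WT mice in 2 (4.5%, against 9.24% of all genes) and below in 6 (13.6%, against 10.3%). The median log2 fold change was -0.15 over 24 sterol genes, with 7 above 0 and 17 below, and 0.12 over 20 fatty acid genes, with 12 above 0 and 8 below.

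Among the genes whose groups lay apart was *Elovl1*, the elongase of very long saturated fatty acids, at 10.6, 10.8 and 8.10 FPKM in WT and 3.84 and 6.18 FPKM in *Ins2*-AKITA mice. All WT mice were higher (log2 fold change -0.87 ± 0.30, limma p 0.0272, adjusted p 0.896). *Nr1h2*, which encodes the sterol sensor LXR beta, was at 87.5, 69.6 and 52.5 FPKM in WT and 49.3 and 40.1 FPKM in *Ins2*-AKITA mice (log2 fold change -0.61 ± 0.26). Here WT replicate 3 was the lowest WT mouse and came close to *Ins2*-AKITA replicate 1. *Ggps1*, the geranylgeranyl diphosphate synthase, had means of 10.7 ± 1.97 (SD, n = 3) FPKM in WT and 6.77 ± 0.196 (SD, n = 2) FPKM in *Ins2*-AKITA mice (log2 fold change -0.58 ± 0.26). On the other side were *Soat1*, which esterifies cholesterol (means of 12.3 and 16.2 FPKM, log2 fold change 0.38 ± 0.24), and the acyl-CoA synthetase gene *Acsl4* (means of 5.76 and 7.79 FPKM, log2 fold change 0.38 ± 0.28).

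The 3 most abundant genes of that list overlapped between genotypes. *Clu*, a lipid-carrying protein of astrocytes, was at 377, 449 and 538 FPKM in WT and 482 and 569.7 FPKM in *Ins2*-AKITA mice. *Acsl6*, the acyl-CoA synthetase of brain, was at 109, 115 and 155 FPKM in WT and 138 and 180.3 FPKM in *Ins2*-AKITA mice, and the lipoprotein receptor gene *Lrp1* at 125, 122 and 97.6 FPKM in WT and 118 and 85.8 FPKM in *Ins2*-AKITA mice. *Clu* and *Acsl6* had the order of WT mice seen in the desaturases, and *Lrp1* had WT replicate 3 as its lowest WT mouse. The fatty acid carrier genes *Fabp4* and *Cd36* stayed under a mean of 1 FPKM.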

How the data were processed

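Microvascular RNA of 3 WT and 2 *Ins2*-AKITA brains had been depleted of ribosomal RNA and sequenced as 1 library per mouse. Per the labels, the authors mapped reads to NCBIM37 with TopHat2 2.0.4, removed duplicates with Picard 1.92 and used Cufflinks 2.2.1. They deposited FPKM values per Ensembl gene and mouse, without replicates pooled and without fragment counts. Identifiers were matched to GENCODE vM1 (37197 of 37982), rows sharing a symbol were summed, and symbols averaging 1 FPKM or more were tested on log2(FPKM + 1), two-sided, with limma 3.58.1 (R 4.3.3) and Benjamini-Hochberg adjustment at 0.05. Fold changes on this scale understate those of low genes. Fragments per mouse were estimated from genes with 1 transcript, where 97.83% to 98.41% of low values were whole within 0.05. The fit was also run on simulated data, with independent noise of the same variance in all mice and no differences between libraries. Those settings differ from the libraries here, so that run does not vouch for the fit on them.

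Members and lists were chosen with earlier results of these data known. Values per mouse are given for the regulators, for the 8 members highest in mean FPKM, for those whose groups did not overlap or had an unadjusted p under 0.05, and for the highest and lowest fold change of each group. Of the other pathway genes, the 3 highest in mean FPKM and up to 3 per direction with groups that did not overlap are named. *Fabp4*, *Cd36* and *Gpihbp1*, and single alternative values, were added after the values were seen. Alternatives were a pseudocount of 0.1, no filter or one at a mean of 5, and median-ratio, quantile, protein-coding and TPM scaling. Further ones were a constant prior, the replicate block, the highest row per symbol, each mouse left out, and libraries nearest in small RNA share.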

Additional observations from a re-analysis of the deposited data

How the results depend on the processing

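In 15 refits no member had an adjusted limma p under 0.05 in any fit, and in 625 of 655 refitted fold changes of 44 named genes the direction was kept. The number of mice, low depth in genes near 5 FPKM and the unequal small RNA share limit what can be seen. With TPM relative to the median of all genes, which moves by 1.07, 17 genes were called higher and 1010 lower. Here the pseudocount of 1 was added after scaling. The sum of all FPKM ran from 1531575 in *Ins2*-AKITA replicate 2 to 13025905 in WT replicate 1. The pseudocount therefore weighed unequally between mice, and most on low genes, so differences in this fit depend on a gene's level. In that fit 1 member, lower in *Ins2*-AKITA mice, had an unadjusted limma p under 0.05, against 12.2% of all genes lower. There 0 members lay above all WT mice, against 0.559% of all genes, and 1 below (2.78%), against 18.5%. The medians were 0.49 over the members and 0.71 over the fatty acid members (0.35 in the deposited scale). A constant prior gave 1 gene called higher, 2 lower and 1 member at an unadjusted p under 0.05 (2.78%, higher, against 1.44% of all genes). No filter and a filter at a mean of 5 each gave 2 genes called lower. Quantile normalization gave 2 members below all WT mice (5.56%, against 8.82% of all genes). *Ins2*-AKITA replicate 2 against WT replicate 3 gave a median of -0.12 over the sterol members (0.19 over all mice). The cause was not tested in any of these.

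Leaving out 1 WT mouse gave 0 to 1 genes called higher and 2 to 6 lower, and 0 to 6 members at an unadjusted p under 0.05. The 6 were without WT replicate 3, all higher, against 3.03% of all genes. Without *Ins2*-AKITA replicate 1 the log2 fold change of *Tm7sf2* was -1.71. Leaving out any 1 mouse gave 4 to 20 members above all WT mice (11.1% to 55.6%, against 13.8% to 26.1% of all genes). Members below all WT mice were 4 to 7 (11.1% to 19.4%, against 14.5% to 27.9%). The medians were 0.10 to 0.35 over the members, 0.08 to 0.34 over the sterol members and 0.12 to 0.49 over the fatty acid members. With 1 *Ins2*-AKITA mouse left, its spread was assumed to equal that of the WT mice. Genes called higher were 10 without *Ins2*-AKITA replicate 2, 3 without replicate 1 and 1 without WT replicate 1, and genes called lower were 2 without WT replicate 2 and 1 without either *Ins2*-AKITA mouse. The fold change crossed 0 for *Srebf1* (-0.17 to 0.32), *Scap* (-0.45 to 0.054), *Mvd* (-0.27 to 0.23), *Tm7sf2* (-1.71 to 0.0332), *Msmo1* (-0.30 to 0.34), *Ebp* (-0.69 to 0.37), *Acaca* (-0.42 to 0.0946), *Fasn* (-0.0754 to 0.38), *Elovl6* (-0.26 to 0.21), *Apoe* (-0.0348 to 0.15) and *Lrp1* (-0.41 to 0.0427).

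The labels' replicate numbers name no shared animal, litter or batch, only 2 numbers are shared between the genotypes, and whether they pair the mice could not be judged from 2 pairs. With the replicate block WT replicate 3 does not enter the difference: 6 members (16.7%), all higher in *Ins2*-AKITA mice, had an unadjusted p under 0.05, against 2.7% of all genes higher and 4.97% lower, the medians were 0.35, 0.34 and 0.49 over the members, the sterol members and the fatty acid members, 5 genes were called lower, and *Srebf1* (-0.0206), *Mvd* (0.23), *Elovl6* (0.21) and *Apoe* (-0.0095) crossed 0. Scaling turned *Mvd* (median-ratio 0.0006, quantile 0.12), *Elovl6* (quantile 0.10) and, relative to the TPM median, *Scap* (0.20), *Insig2* (0.0664), *Acaca* (0.29), *Elovl5* (0.24) and *Lrp1* (0.41).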
